A study of Arabidopsis thaliana with 6 samples.

Results

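The loci described here lie on the short arm of chromosome 4 of Arabidopsis thaliana, in and around the heterochromatic knob that the Columbia accession carries. They were taken by locus number, from AT4G03500 to AT4G05499 with AT4G04955 and AT4G04890 left out, a rule that uses locus numbers alone. It gave 314 of the 33602 loci in the deposited table. The knob is a block of transposon-rich chromatin that sits away from the centromere. It is known to be tied to an inversion of this chromosome segment, so that Columbia and Landsberg erecta (Ler) carry the same genes in opposite order here and recombine little across the segment in hybrids. Transposon-rich chromatin of this kind is normally held silent by DNA methylation, and in endosperm, the nourishing tissue of the seed, to which the mother gives the larger genome dose, part of that methylation is removed from the maternal genome.

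The RNA came from F1 endosperm nuclei of reciprocal crosses at 4 days after pollination. Nuclei were isolated by INTACT, which pulls down nuclei through a tag on their envelope, and libraries were made from poly(A) RNA. The cross Cm x L had the TEmob line as mother and Ler as father, and the cross L x Cm had a pistillata mutant of Ler, which lacks stamens, as mother and TEmob as father. TEmob (Cm) is a Columbia-0 line with the INTACT tag. It descends from seeds germinated on zebularine (40 µM), an inhibitor of DNA methylation, with α-amanitin, a poison of RNA polymerase II, and then held at 37 °C. It next passed through a haploid stage after a cross to a cenh3 tailswap plant, and colchicine made it diploid. It is 1 line, both crosses carry its genome, and endosperm of the untreated parent was not analysed here. Each cross had 3 libraries. Whether they came from separate plants is not stated, so p-values reflect only how these samples vary, and that variation may be technical. Values sum both parental alleles. Direction of cross, genome dose, the mother's pistillata mutation, the parent that brought the INTACT tag and how well reads match the Columbia reference cannot be told apart.

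Recovered depths were 22.2 to 29.2 M reads in Cm x L and 21.2 to 27.2 M in L x Cm. The libraries nevertheless differed in how many loci they listed at 0. Of all 33602 loci, the Cm x L libraries 1 to 3 had 5036, 1005 and 10084 at 0, against 1270, 2137 and 3636 in the L x Cm libraries 1 to 3. Of the 314 region loci, the numbers at 0 were 91, 9 and 162 in Cm x L and 18, 35 and 56 in L x Cm. Cm x L replicate 3 therefore stood apart at the low end, and results at low levels are given below with and without single libraries. All 6 endosperm markers examined were above 0 in every library, with summed levels of 277 to 316 RPKM in Cm x L and 329 to 369 RPKM in L x Cm. Of these, FIS2 was higher in Cm x L (0.61 on the log2 scale, limma adjusted p = 0.037), 0 were lower and 5 were not called. Among the uncalled markers, FWA had a positive difference (0.43, adjusted p = 0.088). Those of AGL62 (−1.34, adjusted p = 0.066), ZOU (−0.79, adjusted p = 0.053), MEA (−0.36) and PHE1 (−0.20) were negative. Of 5 embryo markers, 1 was higher and 3 lower in Cm x L, 2 of the list were at 0 in at least 1 library, and sums were 72.7 to 161 RPKM in Cm x L and 82.8 to 105 RPKM in L x Cm. The Cm x L sums were mostly LEC1, at 157, 151 and 69.5 RPKM in Cm x L against 27.2, 60.0 and 46.7 RPKM in L x Cm. The lower ones were WOX9, STM and CUC3, and STM had 0.778, 2.30 and 1.09 RPKM in Cm x L against 25.0, 14.0 and 12.4 RPKM in L x Cm. Of 5 seed coat markers, 1 was lower in Cm x L and sums were 114 to 378 RPKM in Cm x L and 231 to 442 RPKM in L x Cm. Of 4 pollen markers, 1 was lower in Cm x L and sums were 118, 659 and 54.7 RPKM in Cm x L and 598, 2309 and 916 RPKM in L x Cm. The part of these other cell types in the results below was not tested. In bulk samples like these, fewer cells of a type and less RNA per cell cannot be told apart.

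In the RefSeq annotation, 307 of the 314 loci were named: 157 protein coding, 142 pseudogenes and 8 other RNA loci, with 7 left unnamed. The pseudogenes, which in this plant's annotation take in transposon remnants, were not spread evenly. They made up 121 of the 188 loci from AT4G03500 to AT4G04599, and 53 of 67 between AT4G03700 and AT4G03999, but only 21 of the 126 loci from AT4G04600 onwards. The median region locus had a mean of 1.21 RPKM (reads per kilobase of gene and M reads of library) over the 6 libraries, against 5.33 RPKM for all loci. Among protein-coding loci the medians were 4.58 RPKM in the region and 9.15 RPKM in all. Another stretch of this chromosome, AT4G08000 to AT4G09999, had medians of 1.04 RPKM for all its loci and 3.36 RPKM for its coding loci.

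Expression was compared as log2(RPKM + 1), Cm x L minus L x Cm, at loci that averaged 1 RPKM or more. A locus was called when limma's Benjamini-Hochberg adjusted p, taken over all 26620 tested loci, was under 0.05. That level was met by 173 region loci, of which 131 were protein coding, 34 were pseudogenes, 7 were other RNA loci and 1 was unnamed. The other 141, including 108 pseudogenes and 26 protein-coding loci, were below it, and 3 were listed at 0 in all libraries.

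Of the 173 tested region loci, 44 were lower and 15 higher in Cm x L than in L x Cm, which is 25.4% and 8.67%. Across all tested loci, 18.3% were lower and 6.73% higher, and 25.0% were called in either direction. The median log2 difference was −0.33 in the region and −0.22 over all tested loci. After quantile normalization, which gives every library the same distribution of values, these medians were 0.06 and 0.04. The region split was then 9 lower and 26 higher of 173, beside 1739 lower and 2070 higher of all 26620 tested loci. The balance of directions thus depended on the scaling. The 44 region loci called lower were picked by their difference in these same libraries, so a kept sign is no separate support. All 44 kept a negative difference under that scaling, and 9 of them kept the call. Of the 15 called higher, 14 kept it. When each library was instead centred on its well expressed loci, the region gave 53 lower and 13 higher. All tested loci then gave 5789 lower and 1225 higher.

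Leaving out 1 library, which also leaves fewer samples to test, changed the counts. Without Cm x L replicate 1, 6 region loci were lower and 3 higher, while the region median was −0.45, against −0.33 with all libraries. Without L x Cm replicate 1 the numbers were 10 and 9 and the median was −0.056. Without L x Cm replicate 2 they were 11 and 4, and without Cm x L replicate 3 they were 26 and 18. In this order, the fits tested 181, 147, 161 and 184 region loci. The counts moved over all loci too, from 4870 lower and 1792 higher of 26620 with all libraries. In the same order they were 1291 and 369 of 27356, 1732 and 797 of 24796, 1779 and 526 of 25947, and 4201 and 2289 of 27433. The loci called in all 6 fits without 1 library were AT4G05095, AT4G04255, AT4G03750, AT4G05340, AT4G05350 and WRKY42 among those lower, and AT4G04692, AT4G05040 and AT4G04360 among those higher. All of these lower loci except AT4G05340 averaged under 1 RPKM in Cm x L, and so passed the 1 RPKM filter only through L x Cm. These fits reuse the same libraries and are no separate support for the calls.

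**Figure D1:**
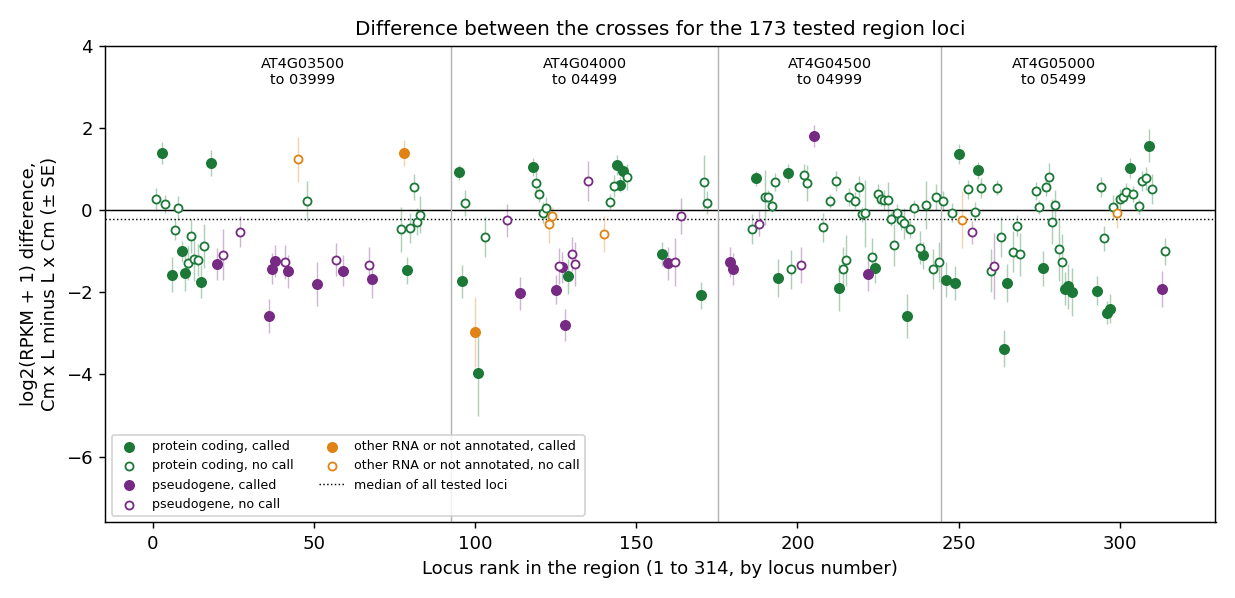
Log2 difference (Cm x L minus L x Cm, with its SE) of the 173 tested region loci against their rank by locus number in the Columbia annotation; filled points passed the test and vertical lines part blocks of 500 locus numbers. Called loci in both directions are spread over all 4 blocks, and the differences below −2 belong to protein-coding, pseudogene and noncoding RNA loci alike.

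The direction of the calls went with expression level. Among loci with a mean of 1 to 5 RPKM, 34 of 91 region loci were lower and 2 higher in Cm x L, against 33.2% lower and 0.465% higher over all loci of that level. From 5 to 20 RPKM, 7 of 53 were lower and 7 higher, against 13.4% and 6.35% of all. At 20 RPKM and above, 3 of 29 were lower and 6 higher, against 6.7% and 14.1% of all. Of the 44 lower loci, 32 averaged under 1 RPKM in Cm x L and so passed the level filter only through L x Cm. At 63 of the 173 loci every Cm x L library was below every L x Cm library and at 33 every one was above, 96 in all, which is 55.5% against 45.5% of all tested loci.

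**Figure D2:**
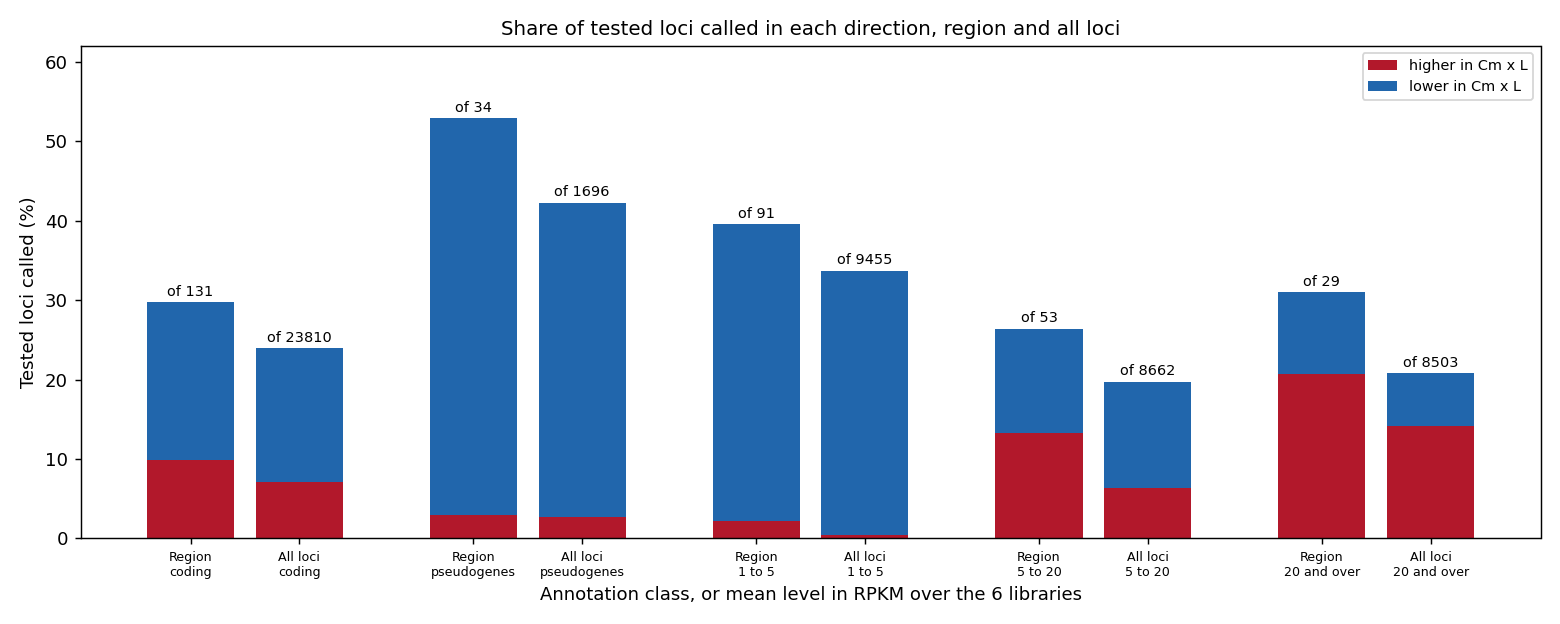
Share of tested loci (%) called higher (red) and lower (blue) in Cm x L, for region loci and for all loci, by annotation class and by mean level in RPKM; the number tested stands over each bar. Lower calls prevail below 5 RPKM and higher calls at 20 RPKM and above, in the region as over all loci.

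By position, the share of lower calls was 13 of 37 tested loci in AT4G03500 to AT4G03999, 11 of 37 in AT4G04000 to AT4G04499, 8 of 48 in AT4G04500 to AT4G04999 and 12 of 51 in AT4G05000 to AT4G05499. Higher calls numbered 3, 5, 3 and 4 in the same order. All tested loci had 18.3% lower and 6.73% higher. Median log2 differences were −1.08, −0.25, −0.16 and −0.07. The first block held the most pseudogenes, 61 of 92 loci, and over all tested pseudogenes 39.6% were lower. Protein-coding loci alone had block medians of −0.47, 0.21, −0.07 and 0.02 in the same order, which is no steady trend. In the pseudogene-dense stretch AT4G03700 to AT4G03999, 8 of 20 tested loci were lower and 1 higher. Beside the region, loci AT4G01500 to AT4G03499, which hold 20 pseudogenes among 268 loci, gave 21 lower and 26 higher of 223 tested. Loci AT4G08000 to AT4G09999, with 136 pseudogenes among 334 loci, gave 38 lower and 14 higher of 175. No test of the difference between these stretches was made.

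Pseudogenes were the class most often lower in Cm x L. Of the 34 tested, 17 were lower and 1 higher, 52.9% called, against 42.3% of all 1696 tested pseudogenes (39.6% lower and 2.71% higher). Their median log2 difference was −1.32, and that of all tested pseudogenes −1.26. Most of the lower loci passed the level filter only through L x Cm, and over all 142 region pseudogenes, with no filter, the median was −0.43. Under quantile normalization the region median was −0.21. All 142 region pseudogenes, tested or not, can be described by detection: the Cm x L libraries 1 to 3 had 75, 139 and 29 above 0, and the L x Cm libraries 130, 119 and 102. The median pseudogene level was 0.0238, 0.545 and 0 RPKM in Cm x L and 1.02, 0.585 and 0.311 RPKM in L x Cm. Cm x L replicate 2 thus detected the most pseudogenes of any library, and the medians of the crosses overlapped. Their summed level was 89.0, 153 and 92.1 RPKM in Cm x L and 252, 172 and 153 RPKM in L x Cm, and the highest Cm x L library lay just above the lowest L x Cm library. Leaving out AT4G04692, a choice made after its values were seen, the sums were 30.1, 104 and 21.8 RPKM in Cm x L and 228, 156 and 141 RPKM in L x Cm. Over the whole genome the share of pseudogenes at 0 moved the same way, at 38.6%, 2.17% and 73.4% in Cm x L and 6.37%, 12.4% and 23.4% in L x Cm.

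The largest pseudogene difference was at AT4G04255, with 0, 0.243 and 0 RPKM in Cm x L and 9.81, 6.86 and 3.94 RPKM in L x Cm. These values correspond to 0, 5 and 0 reads in Cm x L against 233, 130 and 73 reads in L x Cm. Its log2 difference was −2.80 (SE 0.39, limma adjusted p = 0.0067), and the call held in every fit without 1 library. AT4G03750, in the pseudogene-dense stretch, had 3, 19 and 0 reads in Cm x L and 136, 114 and 69 in L x Cm (a log2 difference of −2.57, adjusted p = 0.0083). Every L x Cm library was above every Cm x L library at both loci. AT4G04230 had 20, 17 and 18 reads in Cm x L and 351, 224 and 147 in L x Cm, a low but even level in Cm x L (−1.93, adjusted p = 0.011). AT4G04165 had 8, 24 and 0 reads in Cm x L against 229, 96 and 96 reads in L x Cm (−2.02, adjusted p = 0.013). Of the fits without 1 library, the last pair lost the call without Cm x L replicate 1, with adjusted p = 0.051 for AT4G04230 and 0.058 for AT4G04165. Quantile normalization also ended both calls, at −0.80 (adjusted p = 0.13) for AT4G04230 and −0.94 (adjusted p = 0.061) for AT4G04165. AT4G05495 (−1.92, adjusted p = 0.020) and AT4G03825 (−1.79, adjusted p = 0.044) have a copy elsewhere in the reference over all of their exon length, at 95% identity or more, so reads could be placed at either site. Both were also not called without Cm x L replicate 1, with adjusted p of 0.080 and 0.14, or after quantile normalization, at −0.98 (adjusted p = 0.18) and −0.83 (adjusted p = 0.28). AT4G03825 had 0, 12 and 0 reads in Cm x L against 80, 14 and 76 reads in L x Cm, and its L x Cm replicate 2 lay just above its Cm x L replicate 2.

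One pseudogene ran the other way. AT4G04692, a transcribed pseudogene of no known protein in the annotation, had 59.0, 49.1 and 70.3 RPKM in Cm x L and 23.7, 15.5 and 11.3 RPKM in L x Cm. It was higher in Cm x L by 1.81 on the log2 scale (SE 0.27, adjusted p = 0.0074), with no overlap between crosses, and was called in every fit without 1 library and after quantile normalization (1.74). It alone made up most of the summed pseudogene level of the region in Cm x L replicates 1 and 3.

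Of the other RNA loci, AT4G04077, a long noncoding RNA, had 0.953, 8.83 and 0.299 RPKM in Cm x L and 9.21, 59.0 and 18.3 RPKM in L x Cm (a log2 difference of −2.96, adjusted p = 0.040). It overlaps AT4G04078, which encodes a small protein of unknown role on the opposite strand. That locus had 0.633, 12.6 and 0 RPKM in Cm x L and 12.6, 116 and 51.5 RPKM in L x Cm, the largest difference in the region (−3.96, SE 1.05, adjusted p = 0.032). Use of strand in counting is not stated, so reads of the pair cannot be told apart, and the 108 exon bases of AT4G04078 have a near-identical copy elsewhere. The highest library of each cross was replicate 2 at both loci, and the highest Cm x L library lay just below the lowest L x Cm library. The pollen markers were likewise highest in replicate 2 of each cross, and their part in this result was not tested. Without L x Cm replicate 2, the adjusted p was 0.11 for AT4G04078 and 0.12 for AT4G04077. In the same order it was 0.096 and 0.12 without Cm x L replicate 1, and 0.052 and 0.067 without Cm x L replicate 3. Without L x Cm replicate 3 it was 0.071 and 0.070, and without L x Cm replicate 1 it was 0.044 and 0.058. Both kept the call without Cm x L replicate 2. Both also lost the call after quantile normalization, at adjusted p of 0.051 and 0.082, and with a mean of at least 5 RPKM required, at 0.052 and 0.063. The noncoding RNA locus AT4G03935 was higher in Cm x L, at 14.6, 15.8 and 15.5 RPKM in Cm x L against 8.82, 4.39 and 3.47 RPKM in L x Cm (1.40, adjusted p = 0.019). A close copy covers 77.8% of its exons, and without L x Cm replicate 2 its adjusted p was 0.067.

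**Figure D3:**
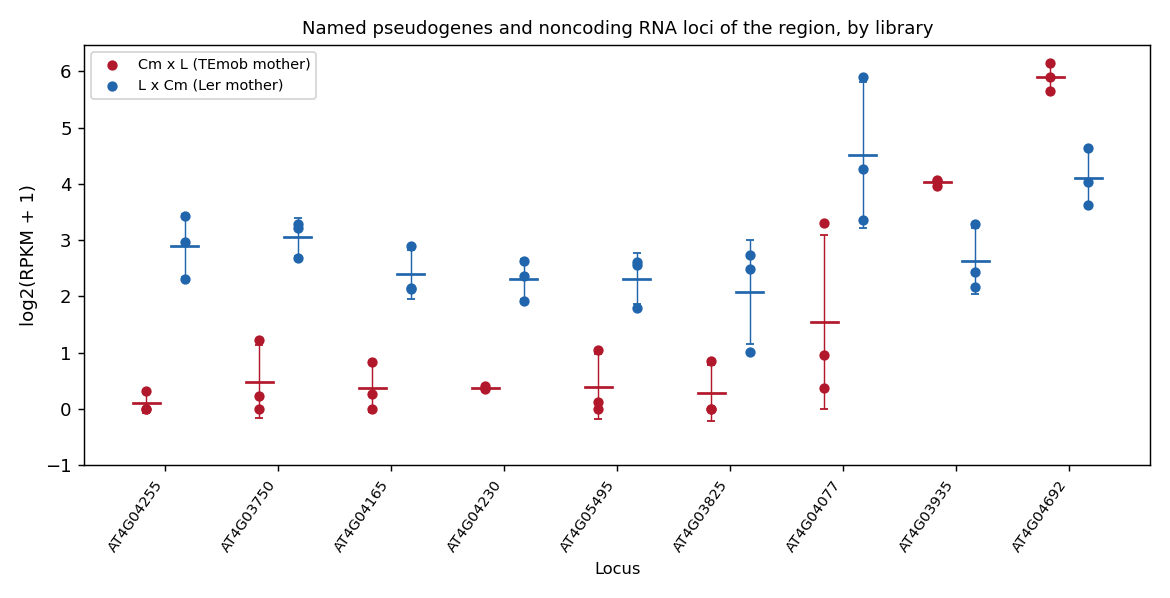
Level, as log2(RPKM + 1), of the named pseudogene and noncoding RNA loci in each library of Cm x L (red) and L x Cm (blue); bars give the mean and SD of 3 libraries. The 6 lower pseudogenes lie near 0 in Cm x L, and AT4G03935 and AT4G04692 lie above their L x Cm values in all 3 Cm x L libraries.

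Among protein-coding loci, 26 of 131 were lower and 13 higher in Cm x L, 29.8% called, against 24.0% of all 23810 tested protein-coding loci (16.8% lower and 7.14% higher). The median log2 difference of the region's coding loci was −0.06, that of all coding loci −0.16, and quantile normalization turned the region's median to 0.21. In the libraries, 139, 155 and 114 of the 157 coding loci were above 0 in Cm x L and 157, 152 and 147 in L x Cm.

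The transposon-derived coding locus AT4G05095, annotated as a reverse transcriptase of a non-LTR retroelement, had 0, 1.53 and 0 RPKM in Cm x L and 17, 13.8 and 9.5 RPKM in L x Cm. Its log2 difference was −3.37 (SE 0.44, adjusted p = 0.0061), the crosses did not overlap, and it was called in every fit without 1 library and after quantile normalization (−2.87). An exon of AT4G05097 overlaps it on the opposite strand. AT4G03566, annotated as a ribonuclease H, an enzyme activity that retroelements also encode, was lower too, at 0, 1.08 and 0 RPKM in Cm x L against 2.04, 4.35 and 2.05 RPKM in L x Cm (−1.53, adjusted p = 0.043). It is named for its annotation and was chosen after its values were seen; without Cm x L replicate 1 its adjusted p was 0.15, and after quantile normalization the difference was −0.46 (adjusted p = 0.44).

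Neighbouring genes AT4G05340, which encodes a P-loop nucleoside triphosphatase, and AT4G05350, which encodes a RING/U-box protein, a class that includes ubiquitin ligases, were both lower in Cm x L. AT4G05340 had 1.18, 1.60 and 1.24 RPKM in Cm x L and 11.4, 15.7 and 10.2 RPKM in L x Cm (a log2 difference of −2.50, SE 0.28, adjusted p = 0.0053). AT4G05350 had 0.0551, 0.683 and 0 RPKM in Cm x L and 5.45, 5.94 and 4.86 RPKM in L x Cm (−2.40, SE 0.35, adjusted p = 0.0073). Neither overlapped between crosses, and both kept the call in every fit without 1 library and after quantile normalization. AT4G05360 and AT4G05380, further along and chosen after their values were seen, did not share the difference. AT4G05360, a zinc knuckle protein gene, had 2.46, 2.86 and 2.80 RPKM in Cm x L against 2.38, 2.90 and 2.28 RPKM in L x Cm (0.08, 95% interval −0.59 to 0.75). AT4G05380, another P-loop gene, had 4.35, 4.6 and 4.95 RPKM in Cm x L and 3.59, 4.19 and 3.35 RPKM in L x Cm (0.26, 95% interval −0.34 to 0.86).

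The transcription factor gene WRKY42, known for its part in the phosphate response of roots, had 0.237, 0.321 and 0 RPKM in Cm x L and 3.82, 4.24 and 3.83 RPKM in L x Cm (−2.07, SE 0.33, adjusted p = 0.0079). Its L x Cm libraries lay close together and far from Cm x L, yet after quantile normalization the difference was −0.94 and the call was lost (adjusted p = 0.079). The stress-related MYB74 had 0.262, 0.758 and 0 RPKM in Cm x L against 6.57, 3.22 and 1.81 RPKM in L x Cm (−1.78, adjusted p = 0.030). OFP9, a gene of the ovate family of repressors, had 0.0705, 0.830 and 0.186 RPKM in Cm x L against 5.41, 2.85 and 2.48 RPKM in L x Cm (−1.74, adjusted p = 0.022). MYB74 and OFP9 were chosen after their values were seen, and without Cm x L replicate 1 their adjusted p-values were 0.099 and 0.092. After quantile normalization their differences were −0.67 and −0.50, with adjusted p-values of 0.21 and 0.26. OFP9 also has a close copy over most of its exons, as do AT4G03650, AT4G03910 and AT4G04820 among the lower pseudogenes.

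DES-1-LIKE encodes a sphingolipid desaturase known to be active in floral tissue. It had 4.30, 12.8 and 1.56 RPKM in Cm x L and 30.1, 42.0 and 28.8 RPKM in L x Cm (−2.58, SE 0.54, adjusted p = 0.016). The crosses did not overlap, but the gene was highest in replicate 2 of each cross, as were the 4 pollen markers, and their part in the difference was not tested. Without L x Cm replicate 2 the adjusted p was 0.062. It was 0.054 without Cm x L replicate 1 and 0.055 without L x Cm replicate 1. After quantile normalization the call was kept, at −2.31 (adjusted p = 0.018). AT4G04745, of unknown role, had 0.178, 0.664 and 0 RPKM in Cm x L and 7.54, 4.89 and 0.984 RPKM in L x Cm (−1.89, adjusted p = 0.045, and 0.14 without L x Cm replicate 2). It kept the call in 1 of the 6 fits without 1 library, and after quantile normalization the difference was −0.94 (adjusted p = 0.19).

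The lower loci included 3 with a mean of 20 RPKM or more, AT4G04078 among them. AT4G03565, a cystatin-like gene of the protease inhibitor fold, had 61.6, 52.3 and 41.7 RPKM in Cm x L and 123, 125 and 72.9 RPKM in L x Cm (−1.0, SE 0.25, adjusted p = 0.026). AT4G04402, annotated as a phosphorelay mediator, had 26.7, 23.6 and 45.4 RPKM in Cm x L against 90.0, 61.5 and 49.7 RPKM in L x Cm (−1.06, adjusted p = 0.036); it was chosen after its values were seen. Both were called after quantile normalization too, at −1.08 and −1.15, and in neither did the crosses overlap. AT4G03565 lost the call without Cm x L replicate 1 or 2, with adjusted p of 0.055 and 0.057. It also lost the call without L x Cm replicate 1 or 2, at 0.089 and 0.090. Without Cm x L replicate 1 the adjusted p of AT4G04402 was 0.12.

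Of the 15 higher loci, 6 averaged 20 RPKM or more, 7 averaged 5 to 20 RPKM and 2 averaged 1 to 5 RPKM. AT4G05040, an ankyrin repeat gene, had 13.0, 15.6 and 14.7 RPKM in Cm x L and 5.46, 6.17 and 3.55 RPKM in L x Cm (1.37, SE 0.25, adjusted p = 0.011). AT4G04360, a putative transmembrane protein gene, had 55.7, 58.4 and 52.7 RPKM in Cm x L and 32.4, 23.9 and 28.6 RPKM in L x Cm (0.96, SE 0.16, adjusted p = 0.0095). These were the coding loci called higher in every fit without 1 library, and in both all Cm x L libraries lay above all L x Cm libraries. RMA1, a membrane-anchored ubiquitin ligase of the secretory pathway, had 25.8, 23.1 and 19.0 RPKM in Cm x L and 11.5, 7.21 and 5.89 RPKM in L x Cm (1.40, SE 0.26, adjusted p = 0.012, and 0.053 without Cm x L replicate 1). It shares exon sequence on the same strand with AT4G03505.

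AT4G05470, an RNI-like gene in a short run of F-box-type neighbours, had the largest positive coding difference, with 5.53, 5.28 and 12.4 RPKM in Cm x L and 2.73, 1.0 and 1.80 RPKM in L x Cm (1.57, SE 0.40, adjusted p = 0.029). It kept the call in 1 of the 6 fits without 1 library. AT4G03635, an F-box/LRR gene, had 4.44, 5.57 and 7.36 RPKM in Cm x L against 2.86, 1.86 and 1.5 RPKM in L x Cm (1.15, adjusted p = 0.037) and kept it in none. The crosses did not overlap at either locus, and after quantile normalization both were called, at 2.28 and 1.96. Without L x Cm replicate 2 their adjusted p-values were 0.093 and 0.10.

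YAO, which encodes a nucleolar WD40 protein needed for gametophyte and embryo development, had 23.3, 24.0 and 33.9 RPKM in Cm x L and 10.3, 11.3 and 17.3 RPKM in L x Cm (1.02, SE 0.25, adjusted p = 0.024, and 0.080 without L x Cm replicate 2). It shares exon sequence with AT4G05400 on the opposite strand. The P-loop gene AT4G04180 (1.05, adjusted p = 0.018), the ERD gene AT4G04340 (1.09, adjusted p = 0.019) and the wound-responsive gene AT4G05070 (0.97, adjusted p = 0.019) were also higher. AT4G05070 was the most abundant of them, at 59.6, 53.7 and 42.0 RPKM in Cm x L against 31.2, 20.0 and 27.1 RPKM in L x Cm. All 3 lost the call without Cm x L replicate 1, with adjusted p-values of 0.071, 0.078 and 0.074. They also lost it without L x Cm replicate 2, at 0.051, 0.066 and 0.061 in the same order. AT4G04340 was likewise not called without Cm x L replicate 2 (adjusted p = 0.056) or without L x Cm replicate 1 (0.061).

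**Figure D4:**
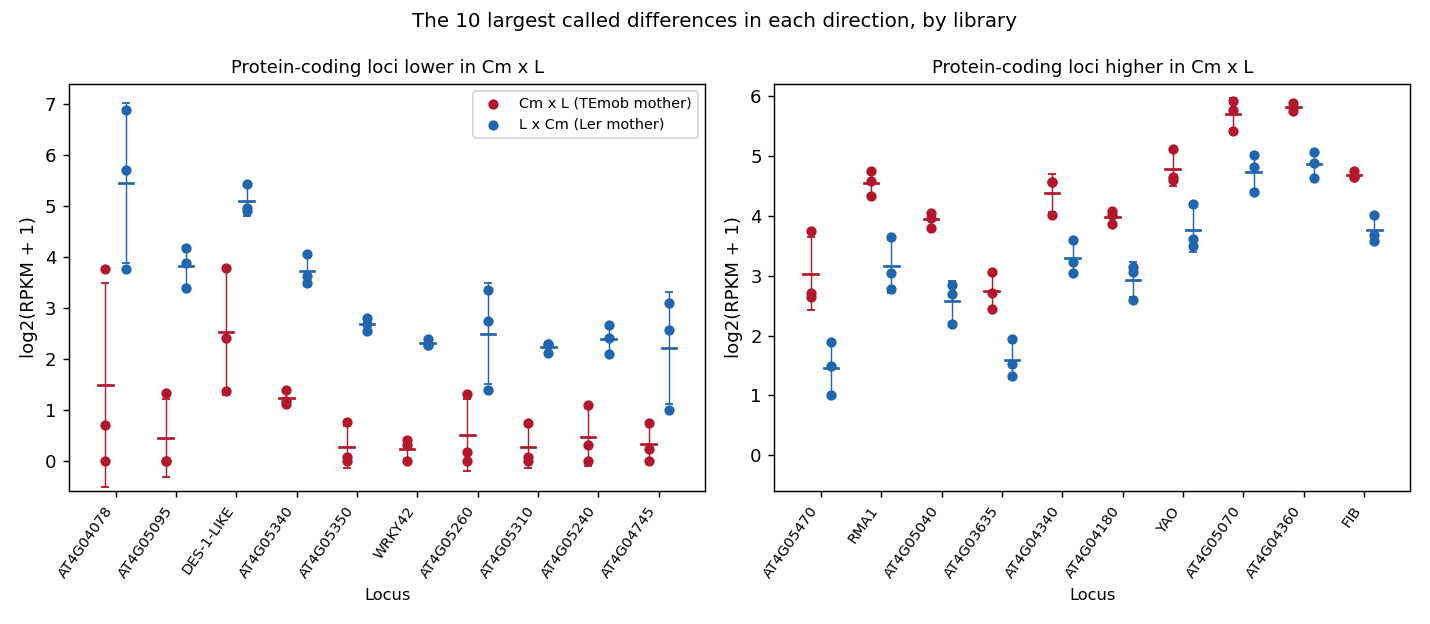
Level, as log2(RPKM + 1), of the 10 called protein-coding loci with the largest differences in each direction, in each library of Cm x L (red) and L x Cm (blue); bars give the mean and SD of 3 libraries. Lower loci are mostly near 0 in Cm x L, and the higher loci keep all 3 Cm x L libraries above the L x Cm libraries.

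Genes for plastid proteins held the most higher calls of the gene groups listed. Of 7 tested, 3 passed the test as higher in Cm x L and 0 as lower, beside 14.1% higher among all loci of 20 RPKM and above and 6.35% from 5 to 20 RPKM, the levels of these genes. Their median was 0.56, or 0.46 after quantile normalization. The list was written with earlier results known. FIB, a fibrillin of plastid lipid bodies, had 24.2, 25.9 and 24.0 RPKM in Cm x L and 11, 11.8 and 15.1 RPKM in L x Cm (0.93, SE 0.18, adjusted p = 0.014). ATPC1, the γ subunit of chloroplast ATP synthase, had 53.2, 50.4 and 83.2 RPKM in Cm x L against 36.4, 28.2 and 32.0 RPKM in L x Cm (0.90, adjusted p = 0.025). EMB2369, a tRNA synthetase gene required for embryo development, had 17.3, 18.3 and 21.4 RPKM in Cm x L against 12.8, 10.5 and 12.5 RPKM in L x Cm (0.63, adjusted p = 0.042). In all of these the crosses did not overlap. EMB2369 shares exon sequence with AT4G04360 on the opposite strand, and it lost the call in every fit without 1 library and after quantile normalization (adjusted p = 0.057). FIB and ATPC1 had adjusted p-values of up to 0.055, without Cm x L replicate 1, and 0.085, without L x Cm replicate 2. The thioredoxin gene ATHM2 had 69.3 ± 18.7 RPKM in Cm x L and 61.7 ± 10.5 RPKM in L x Cm (mean ± SD, n = 3 each), which did not pass the test.

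The polyubiquitin genes UBQ11 and UBQ10 were the most abundant loci of the region. UBQ11 had 406, 410 and 447 RPKM in Cm x L and 229, 306 and 366 RPKM in L x Cm. Its log2 difference of 0.51 had a 95% interval of −0.03 to 1.05 (adjusted p = 0.14). UBQ10 had 298, 323 and 370 RPKM in Cm x L and 167, 230 and 289 RPKM in L x Cm (0.56, 95% interval −0.01 to 1.12, adjusted p = 0.12). In both the crosses did not overlap, but neither passed the test. Ubiquitin repeats are alike within and between these genes, and the annotation states that accessions differ in the number of repeats in UBQ11, so levels per length of the Columbia gene are uncertain in a hybrid. Next in abundance came AT4G04200, a signal peptidase subunit gene, with 144, 108 and 103 RPKM in Cm x L against 95.8, 92.6 and 79.3 RPKM in L x Cm (0.39, 95% interval −0.03 to 0.81). AT4G04925, of unknown role, had 101, 91.5 and 34.5 RPKM in Cm x L against 99.5, 72.2 and 86.9 RPKM in L x Cm (−0.32, 95% interval −1.19 to 0.56), where Cm x L replicate 3 was far below the others.

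Close to UBQ10 runs a tandem row of low-expressed genes annotated as ubiquitin-like. Of 6 listed, 5 were tested and 4 were lower in Cm x L, beside 33.2% lower among all loci of 1 to 5 RPKM and 13.4% from 5 to 20 RPKM. Their median was −1.92. After quantile normalization the median was −0.79 and none of the 4 was called. The lower genes AT4G05240, AT4G05260 and AT4G05310 averaged 0.458, 0.533 and 0.245 RPKM in Cm x L. They thus passed the 1 RPKM filter only through L x Cm. AT4G05310 had 0.0548, 0.680 and 0 RPKM in Cm x L and 3.89, 3.91 and 3.32 RPKM in L x Cm (−1.96, SE 0.36, adjusted p = 0.012, and 0.057 without Cm x L replicate 1). AT4G05240 had 0.230, 1.14 and 0 RPKM in Cm x L against 5.32, 3.26 and 4.29 RPKM in L x Cm (−1.92, adjusted p = 0.016, and 0.068 without Cm x L replicate 1). AT4G05260 had 0.132, 1.47 and 0 RPKM in Cm x L against 9.14, 5.67 and 1.63 RPKM in L x Cm (−2.00, adjusted p = 0.042, and 0.13 without L x Cm replicate 1). AT4G05250, the most abundant of the row, had 0.929, 1.29 and 6.74 RPKM in Cm x L against 7.26, 11.1 and 15.1 RPKM in L x Cm (−1.85, adjusted p = 0.042, and 0.13 without Cm x L replicate 1). In all 4 the lowest L x Cm library lay above the highest Cm x L library, though by little for AT4G05250 and AT4G05260.

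**Figure D5:**
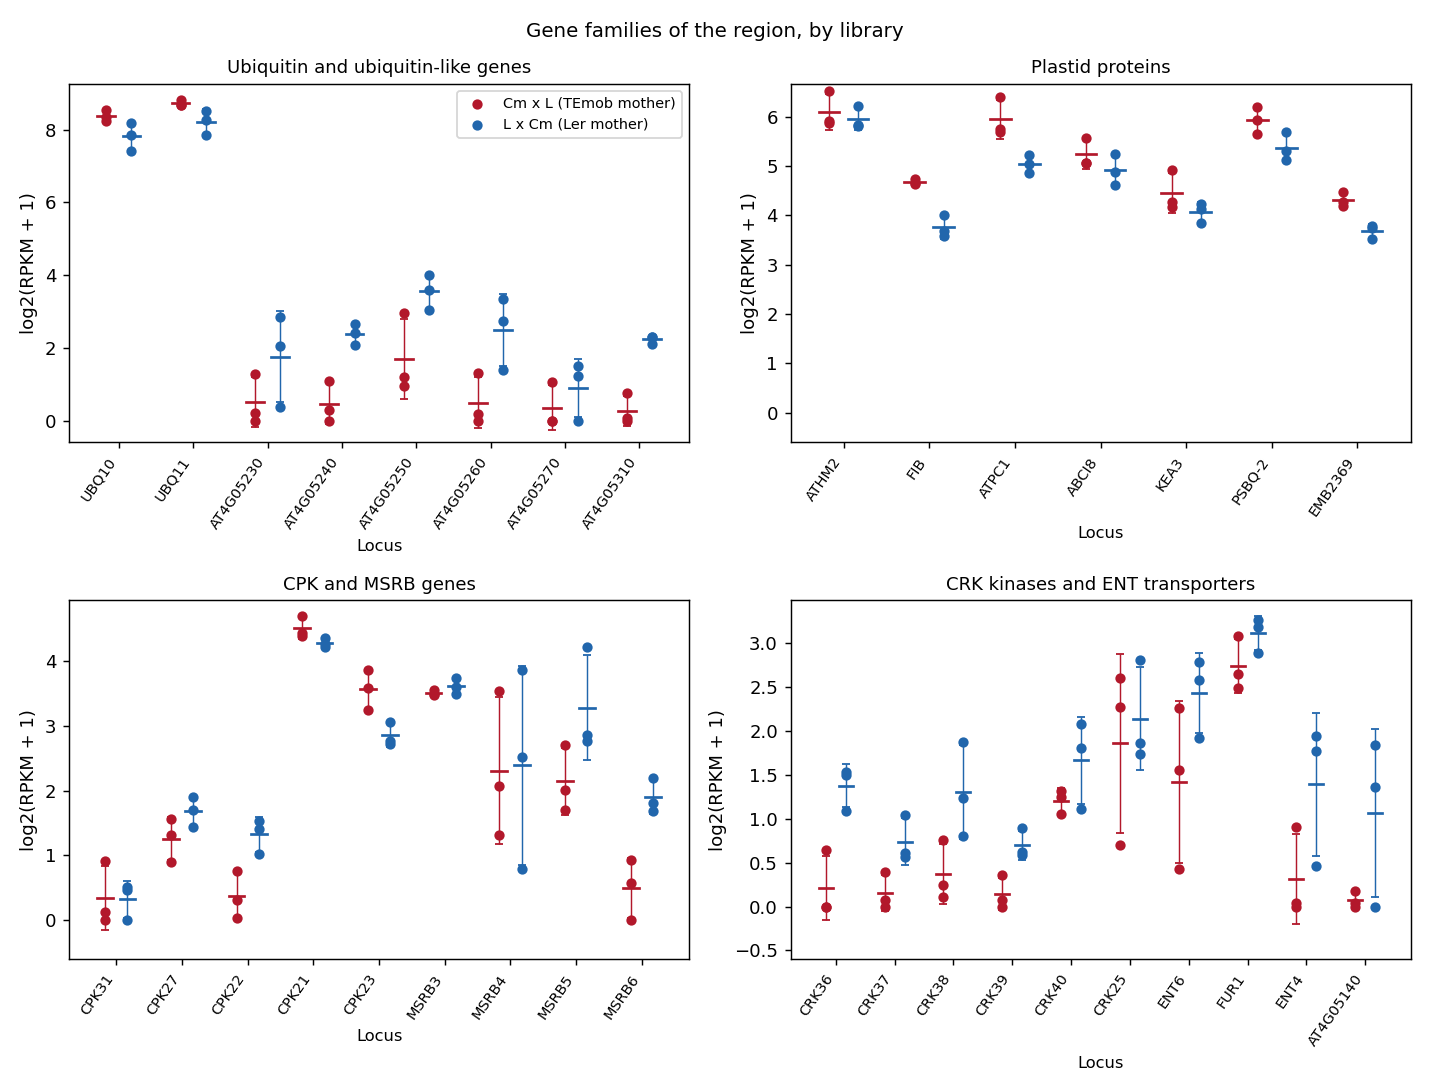
Level, as log2(RPKM + 1), of ubiquitin and ubiquitin-like genes, plastid protein genes, CPK and MSRB genes, and CRK and ENT genes in each library of Cm x L (red) and L x Cm (blue); bars give the mean and SD of 3 libraries. The ubiquitin-like genes lie lower in Cm x L while UBQ10 and UBQ11 lie higher without passing the test, and most of the kinase and transporter genes overlap between crosses or lie near 0.

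The kinase and transporter families gave 0 calls. Of 5 CPK genes, calcium-dependent kinases, 3 were tested and 0 called. CPK23, which with CPK21 is known to act on guard cell anion channels, had 8.47, 10.9 and 13.5 RPKM in Cm x L and 5.57, 5.82 and 7.33 RPKM in L x Cm (0.71, 95% interval 0.14 to 1.28, adjusted p = 0.068). Its crosses did not overlap. CPK21 had 21.7 ± 2.71 RPKM in Cm x L and 18.3 ± 0.912 RPKM in L x Cm (mean ± SD, n = 3 each). The untested CPK22 averaged 0.317 RPKM in Cm x L and 1.53 RPKM in L x Cm, while the untested CPK31 overlapped between crosses. Of 6 CRK genes, cysteine-rich receptor-like kinases, 2 were tested and 0 called. CRK25, the most abundant, had 5.09, 3.86 and 0.624 RPKM in Cm x L and 6.03, 2.35 and 2.65 RPKM in L x Cm, which overlapped. The untested CRK36, CRK37, CRK38 and CRK39 had lower means in Cm x L. CRK36 had 0, 0.558 and 0 RPKM in Cm x L against 1.13, 1.89 and 1.84 RPKM in L x Cm. Of 4 ENT nucleoside transporter genes, 3 were tested and 0 called, and FUR1 had 5.79 ± 1.5 RPKM in Cm x L and 7.74 ± 1.15 RPKM in L x Cm. The median log2 difference of the tested ENT genes was −1.01, or 0.0058 after quantile normalization.

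All 4 MSRB genes, which encode repair enzymes for oxidised methionine, were tested. MSRB6 was lower in Cm x L, at 0.484, 0.900 and 0 RPKM in Cm x L against 2.51, 2.23 and 3.56 RPKM in L x Cm (−1.40, adjusted p = 0.035), but it lost the call after quantile normalization (−0.19) and had adjusted p = 0.12 without Cm x L replicate 1. MSRB3 had 10.3 ± 0.351 RPKM in Cm x L and 11.2 ± 1.0 RPKM in L x Cm, a difference within the spread. MSRB4 ranged from 1.49 to 10.6 RPKM in Cm x L and from 0.730 to 13.4 RPKM in L x Cm. The callose synthase gene GSL1 had 7.13, 7.72 and 0.868 RPKM in Cm x L and 4.31, 3.54 and 3.18 RPKM in L x Cm, and GSL05, the enzyme of callose at wounds and papillae, had 14.6 ± 4.14 RPKM in Cm x L and 20.3 ± 3.70 RPKM in L x Cm; neither was called. In GSL1 Cm x L replicate 3 alone lay below L x Cm.

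Of 7 genes for gene expression and protein turnover, 1 was higher, YAO, and 0 were lower, with a median of 0.39. All loci of 5 to 20 RPKM, the level of most of them, had 6.35% higher, and those of 20 RPKM and above 14.1%. ATG8B, a ubiquitin-like protein of autophagosomes, had 23.5, 24.8 and 24.1 RPKM in Cm x L and 17.9, 10.7 and 16.3 RPKM in L x Cm (0.69, 95% interval 0.19 to 1.18, adjusted p = 0.051). The damaged-DNA ubiquitin ligase subunit DDB1A had 16.4 ± 2.13 RPKM in Cm x L and 12.2 ± 1.27 RPKM in L x Cm, and the vesicle fusion gene NSF had 17 ± 2.98 RPKM in Cm x L and 17.7 ± 2.52 RPKM in L x Cm. Neither was called, nor was either Mediator gene: SFR6 had 20.3 ± 4.91 RPKM in Cm x L and 24.2 ± 4.76 RPKM in L x Cm, and MED21 had 20.4 ± 3.34 RPKM in Cm x L and 17.3 ± 3.60 RPKM in L x Cm. Of 4 listed F-box-type genes next to AT4G05470, 3 were tested and AT4G05470 was the 1 called. Its neighbour AT4G05497 had 1.75, 2.18 and 3.05 RPKM in Cm x L and 6.20, 7.15 and 3.88 RPKM in L x Cm, the other direction, without a call.

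Across the tested region loci, Pearson's r of log2 values was 0.865 to 0.972 between libraries of 1 cross and 0.726 to 0.853 between crosses. Over all tested loci the ranges were 0.903 to 0.977 and 0.831 to 0.883. Loci share depth and library, and these values are a description only.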

How the data were processed

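Per the labels' protocols, RNA was taken from INTACT-purified endosperm nuclei, poly(A) selected and made into libraries with an NEBNext Ultra II kit. Per the submitters' processing notes, TopHat2 2.1.0 and the TAIR10 build were used. Which tool counted reads, and whether by strand, is not stated here. The authors deposited RPKM values, read numbers per gene length and library total, for 33602 loci in 6 columns. Column names lack the TEmob tag; parent order and replicate number in them gave the sample, and 0 were left unmapped. All 279 organelle loci stood at 0.

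The members and gene lists were chosen with earlier results of these data known. Names, classes, exon lengths and overlaps are those of RefSeq for TAIR10.1 (32835 loci matched); because the builds differ in name, no coordinates or sequences are printed. Depth and reads were recovered from pseudogene RPKM, whose steps gave whole reads within 0.02 for 99.6% to 99.9% of values up to 20 reads, the share by which the step was picked. Copies were searched with BLAST+ 2.17.0 at 95% identity over at least 100 bases. Limma 3.58.1 in R 4.3.3 tested log2(RPKM + 1) with an intensity trend, 2-sided, cross direction being the term; the script was tested on simulated data. A fold on this scale understates change at low levels, and 3 reads at 1 kb were worth 0.103 to 0.141 RPKM. Python 3.11.15 with pandas 2.3.3 drew summaries.

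Named loci are the 10 called coding loci largest in each direction, up to 6 pseudogenes and 3 other RNA loci in each, the 5 most abundant coding loci, and family members; others are said to be chosen after their values were seen. The 13 alternatives changed the pseudocount, level filter, scaling, replicate term or left out 1 library.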

Additional observations from a re-analysis of the deposited data

How the results depend on the processing

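None of the called loci chosen by the naming rule changed sign wherever one of the 13 alternatives gave a value. They had been called in the same libraries that the alternatives refit, so a kept sign is no separate support. Of the named loci, 25 lost the call without Cm x L replicate 1 and 14 after quantile normalization. Over all loci, 1322 were lower with a mean of at least 5 RPKM required and 1739 after quantile normalization. In the region, 28 were lower with a pseudocount of 0.1 RPKM, 6 with a mean of at least 5 RPKM and 9 after quantile normalization, which also gave 26 higher. The region median was 0.23 with the 5 RPKM filter and 0.064 after quantile normalization. The coding median was −0.27 with no filter, 0.24 with the 5 RPKM filter and 0.21 after quantile normalization. The pseudogene median was −3.19 and −1.86 with pseudocounts of 0.1 and 0.5 RPKM, −0.43 with no filter, −0.21 after quantile normalization and 0.63 with the 5 RPKM filter, which leaves 2 loci. Quantile normalization moved the lower share of calls over all loci to 45.7%, against 73.1%, and in the region to 25.7%, against 74.6%.

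Leaving out 1 library gave 369 to 2289 higher and 1291 to 5263 lower loci in all. In the region it gave 3 to 18 higher, 6 to 46 lower, medians of −0.47 to −0.056, coding medians of −0.09 to 0.04 and pseudogene medians of −1.54 to −1.18. With the replicate block, 14 region loci were higher and 34 lower, and 1963 and 4887 in all. Same-numbered libraries deviated together at r of 0.081, 0.146 and 0.204. Of the pairs with unlike numbers, L x Cm replicate 1 and Cm x L replicate 2 had 0.124, and the rest had −0.016 to −0.227. Whether the numbers pair samples was not tested, and the main fit held no replicate term. Depth limits low loci: 1 read at 1 kb was worth 0.0342 to 0.0471 RPKM, for counting error only.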
